A study of Rattus norvegicus with 6 samples.

Results

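The genes described here drive or restrain the cell division cycle, or copy the genome. They were looked up by symbol from a list of 41: 17 of S phase and DNA replication, 13 of G2 and mitosis (G2/M), and 11 of G1, the growth phase before replication. The table held 39 of its 32623 genes under these symbols, 16 of S phase, 12 of G2/M and 11 of G1. E2f1 and Ccnb2 were not analysed here. All 39 passed the filter on low values, a mean over all libraries of 1 FPKM or more (FPKM scales fragment counts by transcript length and library size).

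The libraries came from primary ventricular myocardial cells of Sprague-Dawley rats at postnatal days 1 to 3, isolated once and pooled over several rats. Both groups received a small interfering RNA for 24 h and lipopolysaccharide (LPS), a bacterial endotoxin, for the following 6 h. In 3 libraries the RNA was the control siNC and in 3 it was siMETTL3, against Mettl3, the methyltransferase that writes N6-methyladenosine on messenger RNA. Cells without LPS were not analysed here, so no value is a response to LPS. Since the cells share 1 isolate, a p-value here reflects library-to-library variation, part or all of which could be technical.

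Cells that enter the cycle first build cyclin D and cyclin E kinases in G1. These phosphorylate the retinoblastoma protein, which releases E2F transcription factors, and the E2F factors switch on the genes that load the replicative helicase, supply deoxynucleotides and copy DNA. Genes of G2 and mitosis come on later through the B-MYB and FOXM1 complexes, which act at promoters that carry a short element called the cell cycle genes homology region (CHR) and CCAAT boxes, bound by NF-Y. Heart muscle cells of newborn rodents are in their last rounds of division, and fibroblasts in such cultures also divide. In bulk RNA, fewer cycling cells and less RNA per cycling cell cannot be told apart.

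Total counts were 71202469 to 76668751 per library. Mettl3 measured 18.2, 17.2 and 15.3 FPKM in siNC replicates 1, 2 and 3 and 10.3, 10.6 and 9.90 FPKM in siMETTL3 replicates 1, 2 and 3, and the groups did not overlap. Its log2 fold change (siMETTL3 minus siNC) was -0.80 (SE 0.0790, edgeR quasi-likelihood adjusted p = 0.00293). Markers of cardiomyocytes were high, with Actc1 (cardiac alpha-actin) at 6104 ± 679 and 4461 ± 443 FPKM and Tnnt2 (cardiac troponin T) at 3662 ± 221 and 4010 ± 360 FPKM in siNC and siMETTL3 (SD, n = 3). The fibroblast collagen Col1a1 was also present, at 1196 ± 17.6 and 752 ± 30.2 FPKM, so the libraries hold RNA of more than 1 cell type. Long and short genes also differed between libraries. The median deviation of genes with an effective length of at least 3621 bases minus that of genes of at most 1433 bases, on the log2 scale, ran from -0.21 in siNC replicate 2 to 0.26 in siMETTL3 replicate 2.

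The promoter windows of the members showed which regulatory letters the phases share. RefSeq windows on rat build GRCr8, from 250 bases before the annotated start to 50 after, were found for 29 of the 39 members. A window was searched on both strands for E2F letters (TTTCCCGC, TTTCGCGC, TTTGCCGC or TTTGGCGC), for CHR letters (TTTGAA) and for CCAAT. The E2F words can overlap each other when read on opposite strands. Printed here, along the strand of the gene, are 4 S-phase genes and Top2a, all lower in siMETTL3 cells, and Cdc20, a mitotic gene that did not pass, each 5′ to 3′ over the 250 bases before the start and the first 30 from it. Capitals mark E2F letters in the S-phase genes and CHR letters in Top2a and Cdc20.
Pcna, chr3:139955791-139956070, minus strand: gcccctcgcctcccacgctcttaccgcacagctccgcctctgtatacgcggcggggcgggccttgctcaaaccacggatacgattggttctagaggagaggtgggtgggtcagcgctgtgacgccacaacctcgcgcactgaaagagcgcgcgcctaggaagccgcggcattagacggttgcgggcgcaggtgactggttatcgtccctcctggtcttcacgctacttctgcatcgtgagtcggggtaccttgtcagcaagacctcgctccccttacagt
Mcm3, chr9:30733717-30733996, minus strand: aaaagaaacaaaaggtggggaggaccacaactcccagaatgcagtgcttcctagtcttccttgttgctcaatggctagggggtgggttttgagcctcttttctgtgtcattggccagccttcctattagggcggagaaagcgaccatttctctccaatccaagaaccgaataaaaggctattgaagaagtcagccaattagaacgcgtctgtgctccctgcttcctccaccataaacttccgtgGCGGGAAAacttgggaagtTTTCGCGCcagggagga
Mcm5, chr19:13488563-13488842, plus strand: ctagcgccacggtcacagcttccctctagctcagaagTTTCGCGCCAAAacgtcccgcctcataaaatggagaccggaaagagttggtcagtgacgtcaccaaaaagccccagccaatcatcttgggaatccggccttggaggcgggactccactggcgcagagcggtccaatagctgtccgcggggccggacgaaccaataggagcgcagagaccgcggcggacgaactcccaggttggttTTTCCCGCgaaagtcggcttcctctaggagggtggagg
Mcm6, chr13:42404323-42404602, minus strand: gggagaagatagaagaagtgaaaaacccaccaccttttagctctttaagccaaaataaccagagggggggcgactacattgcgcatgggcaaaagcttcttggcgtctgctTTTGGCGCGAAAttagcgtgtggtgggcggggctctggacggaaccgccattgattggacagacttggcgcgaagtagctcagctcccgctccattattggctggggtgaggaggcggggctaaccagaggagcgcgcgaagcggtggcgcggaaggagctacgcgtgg
Top2a, chr10:84473064-84473343, minus strand: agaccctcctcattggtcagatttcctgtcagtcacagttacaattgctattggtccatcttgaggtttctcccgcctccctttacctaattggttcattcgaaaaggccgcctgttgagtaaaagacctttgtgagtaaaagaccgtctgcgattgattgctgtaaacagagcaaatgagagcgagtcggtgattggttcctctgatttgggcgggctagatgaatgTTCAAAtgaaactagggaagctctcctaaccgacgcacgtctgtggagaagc
Cdc20, chr5:137255770-137256049, minus strand: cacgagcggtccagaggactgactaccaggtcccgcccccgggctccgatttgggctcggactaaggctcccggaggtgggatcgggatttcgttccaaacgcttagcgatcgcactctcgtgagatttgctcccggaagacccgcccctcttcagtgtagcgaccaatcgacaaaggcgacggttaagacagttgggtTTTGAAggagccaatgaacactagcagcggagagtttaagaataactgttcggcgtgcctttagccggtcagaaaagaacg

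E2F letters stood in 8 of 12 S-phase windows (66.7%), 1 of 10 G2/M windows (10.0%, Cdk1) and 1 of 7 G1 windows (14.3%, Rb1). Over all 33469 windows of the table the share was 2.14%, and over the 9210 windows of tested genes 4.28%. CHR letters stood in 7 of 10 G2/M windows (70.0%), in 1 of 12 S-phase windows (8.33%, Mcm2) and in 0 of 7 G1 windows, against 11.3% over the windows of tested genes and 18.3% over all. CCAAT was found in 8 of 12, 7 of 10 and 3 of 7 windows, against 38.0% over the windows of tested genes and 37.5% over all. In Mcm6 the E2F words begin at -139 and -135 and overlap, in Mcm5 they begin at -213, -209 and -8, and in Mcm3 at -6 and 13, counted from the annotated start at 0. The Pcna and Rrm1 windows hold none of these E2F letters. Among S-phase members with a window, 4 of the 6 that were lower in siMETTL3 cells and 4 of the 6 that did not pass carried E2F letters.

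**Figure D1:**
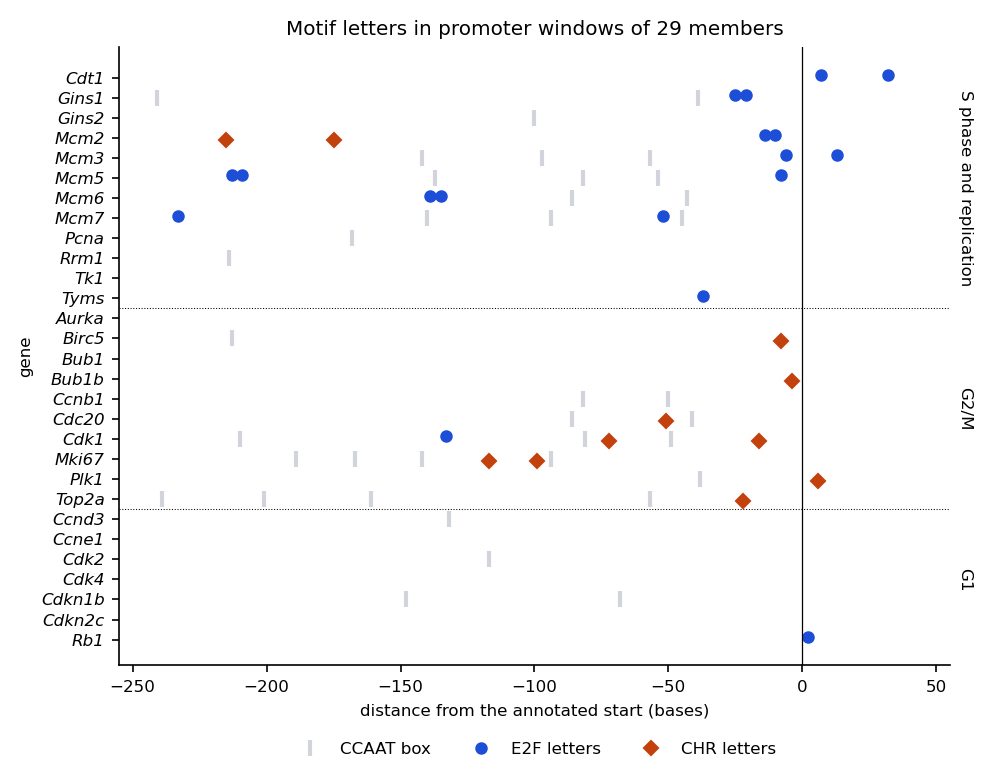
Distance from the annotated start (bases, horizontal) of E2F letters (blue circles), CHR letters (orange diamonds) and CCAAT boxes (grey bars) in the promoter windows of 29 members, 1 row per gene, grouped by phase. The blue circles lie mostly in the S-phase rows (8 of 12 genes) and the diamonds mostly in the G2/M rows (7 of 10 genes).

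Lower levels in siMETTL3 cells were called for S-phase genes, for 1 G2/M gene and for no G1 gene. Of 16 S-phase members 9 fell and 0 rose, among them the replication clamp Pcna (log2 fold change -0.65), the origin factor Cdc6 (-0.47) and the repressor E2f8 (-0.42). Of 12 G2/M members 1 fell (Top2a, -0.31) and 0 rose, and of 11 G1 members 0 passed in either direction. Of all 13105 genes tested, 6.59% were called lower and 3.4% higher (9.99% in either direction). The test was edgeR's quasi-likelihood test on counts with trimmed-mean (TMM) scaling and Benjamini-Hochberg adjustment over all genes, at a threshold of 0.05. At an unadjusted p under 0.05, 13 S-phase, 4 G2/M and 2 G1 members were lower and 0 members were higher, where 15% of all genes were lower and 12.5% higher.

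The median log2 fold change was -0.29 for the S-phase members, -0.03 for the G2/M members and -0.04 for the G1 members, beside 0.0025 for all genes tested. The fold change lay below 0 for 14 of 16, 7 of 12 and 7 of 11 members, against 49.5% of all genes. By limma on log2(FPKM + 1) it lay below 0 for 14 of 16, 4 of 12 and 5 of 11 members. The limma medians were -0.20, 0.04 and 0.03 beside 0.07 for all genes. Relative to the median of all genes, the S-phase, G2/M and G1 medians were -0.29, -0.03 and -0.05 by edgeR and -0.27, -0.02 and -0.04 by limma. After TMM scaling the counts of the 2 groups did not overlap, with siMETTL3 lower, in 13 of 16 S-phase, 4 of 12 G2/M and 3 of 11 G1 members, where 18.1% of all genes tested did so. On the same scaled counts the groups did not overlap with siMETTL3 higher in 0, 1 (Bub1b) and 1 (Cdkn1b) members, against 15.8% of all genes. The difference between the phases was not tested.

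**Figure D2:**
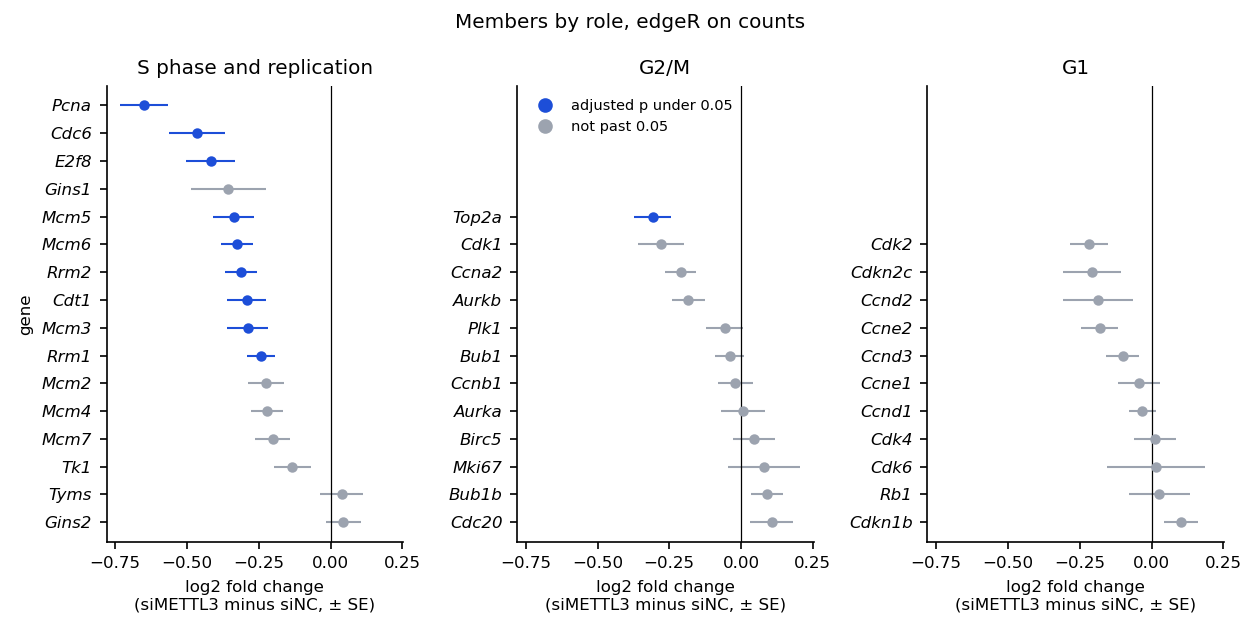
Log2 fold change (siMETTL3 minus siNC, edgeR; bars, SE) of the 39 members, in 3 panels by phase. Blue points passed an adjusted p of 0.05; 9 of 16 S-phase genes and 1 of 12 G2/M genes did, all to the left of 0.

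How many members passed depended on the scaling and the test, while no member was called higher in any of the fits. DESeq2 called 12 S-phase members lower, limma on log2(FPKM + 1) 4 (Pcna, Mcm6, Rrm2 and E2f8), and edgeR on library totals alone 5 (the same 4 and Cdc6), where the median of all genes moved to 0.078 and that of the S-phase members to -0.22. Over all genes DESeq2 called 10.6% lower and 7.71% higher, limma 4.4% and 6.53%, and library totals alone 4.82% and 7.82%. Offsets for gene length, an alternative chosen after seeing the data, gave 11 S-phase members lower, with 10.3% of all genes lower and 6.07% higher. Leaving out siNC replicate 1, 2 or 3 gave 1, 2 or 8 S-phase members lower, and leaving out siMETTL3 replicate 1, 2 or 3 gave 1, 4 or 1. Over all genes these fits called 1.98%, 3.33% and 5.2% lower without the siNC replicates and 2.21%, 3.85% and 3.9% lower without the siMETTL3 replicates. They hold fewer libraries, and the fold change stayed below 0 in at least 14 of 16 in each of these fits. With the replicate number added to the edgeR model as a block, 0 S-phase members were called, and 50 of all genes were called lower. The fold change lay below 0 in 14 of 16 there too.

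Pcna, the sliding clamp that holds DNA polymerases on the template, showed the largest fall of the members. It measured 94.7, 100.2 and 84.0 FPKM in siNC and 64.4, 57.6 and 65.2 FPKM in siMETTL3 (replicates 1, 2 and 3 each). All siMETTL3 libraries lay below all siNC libraries, and the siMETTL3 mean was 67.1% of the siNC mean in FPKM. The log2 fold change was -0.65 (SE 0.0837, edgeR adjusted p = 0.00720), and the adjusted p was at most 0.0389 with any 1 library left out. With the replicate block the edgeR adjusted p of Pcna was 0.0831. Pcna has the identifier ENSRNOG00000021264 in the table (chromosome 3, 124880698 to 124884570, minus strand). The genome build of these coordinates is not given in the sources used here.

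The origin is licensed when Cdc6 and Cdt1 load the MCM helicase, a ring of 6 subunits, and Gins proteins later switch it on. Cdc6 measured 3.94, 4.31 and 3.79 FPKM in siNC and 3.10, 2.83 and 3.24 FPKM in siMETTL3 (log2 fold change -0.47, SE 0.0982, edgeR adjusted p = 0.0307). Cdt1 measured 8.73, 9.43 and 9.08 FPKM in siNC and 7.83, 7.89 and 7.71 FPKM in siMETTL3 (-0.29, SE 0.0672, adjusted p = 0.0391). Neither gene's groups overlapped, and the 3 siMETTL3 libraries of Cdt1 were tighter (SD 0.0878 FPKM) than its siNC libraries (SD 0.348 FPKM).

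All 6 subunits of the MCM ring had lower values in siMETTL3 libraries than in siNC libraries without overlap, and 3 of them passed the test. Mcm5 measured 24.5, 25.7 and 22.0 FPKM against 20.3, 20.8 and 19.2 FPKM (-0.34, SE 0.0709, adjusted p = 0.0305). Mcm6 measured 33.4, 35.2 and 32.4 FPKM against 28.4, 29.3 and 27.3 FPKM (-0.32, SE 0.0560, adjusted p = 0.0163). Mcm3 measured 31.9, 33.8 and 28.5 FPKM against 26.8, 26.5 and 27.9 FPKM (-0.29, SE 0.0710, adjusted p = 0.0477). In Mcm3 the gap between the groups was narrow, between siNC replicate 3 and siMETTL3 replicate 3. The other subunits lay on the far side of the threshold: Mcm4 measured 34.5, 35.7 and 33.0 against 30.4, 32.7 and 30.2 FPKM (-0.22, adjusted p = 0.0503) and Mcm2 22.4, 21.5 and 19.5 against 18.9, 19.3 and 18.9 FPKM (-0.22, adjusted p = 0.0640), both by edgeR. Mcm7 had a log2 fold change of -0.20 (adjusted p = 0.0813). DESeq2 called all 6 subunits lower, and so did edgeR with offsets for gene length. The subunits' mean levels were 20.1 to 45.7 FPKM, and their log2 fold changes spanned -0.34 to -0.20, a range of the same order as their standard errors (0.0555 to 0.0710).

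Neither GINS subunit passed. Gins1 measured 13.3, 14.5 and 11.4 FPKM in siNC and 12.1, 9.52 and 10.6 FPKM in siMETTL3, which overlap (-0.36, SE 0.130, adjusted p = 0.132). Gins2 had a log2 fold change of 0.04 (SE 0.0607, adjusted p = 0.673).

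Ribonucleotide reductase makes the deoxynucleotides for replication from its large subunit Rrm1 and its small, S-phase-limited subunit Rrm2, and both fell. Rrm2 measured 88.4, 89.9 and 91.9 FPKM in siNC and 76.95, 79.8 and 72.5 FPKM in siMETTL3 (-0.31, SE 0.0545, edgeR adjusted p = 0.0168). Rrm1 measured 71.6, 73.9 and 72.5 FPKM in siNC and 65.0, 66.4 and 62.9 FPKM in siMETTL3 (-0.24, SE 0.0482, adjusted p = 0.0265). In both genes the groups stood clear of each other, with a gap wider than either group's SD (1.73 and 3.68 FPKM for Rrm2, 1.13 and 1.76 FPKM for Rrm1). With the offsets for gene length Rrm2 did not pass (adjusted p = 0.0759). The thymidine branch showed no call: thymidylate synthase Tyms had a log2 fold change of 0.04 (SE 0.0750, adjusted p = 0.772) and thymidine kinase Tk1 one of -0.13 (SE 0.0641, adjusted p = 0.232).

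E2f8, an atypical E2F that represses E2F targets late in S phase, also fell. It measured 6.36, 6.98 and 6.66 FPKM in siNC and 5.58, 4.97 and 5.22 FPKM in siMETTL3, without overlap (-0.42, SE 0.0852, edgeR adjusted p = 0.0281). It was called by limma too (adjusted p = 0.0439), yet it passed in 0 of the 6 fits with 1 library left out, where the adjusted p was 0.0544 to 0.0841.

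Pcna kept its call in each fit with 1 library left out and Cdt1, like E2f8, in none (0.0711 to 0.131). Mcm6 passed without siNC replicates 2 and 3 and siMETTL3 replicate 2, and reached 0.0677 at most. Rrm1 (up to 0.0952) and Rrm2 (up to 0.0673) passed without siNC replicate 3 or siMETTL3 replicate 2. Mcm3 (up to 0.145), Mcm5 (up to 0.112), Cdc6 (up to 0.0970) and Top2a (up to 0.0944) passed only without siNC replicate 3 (all edgeR adjusted p).

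**Figure D3:**
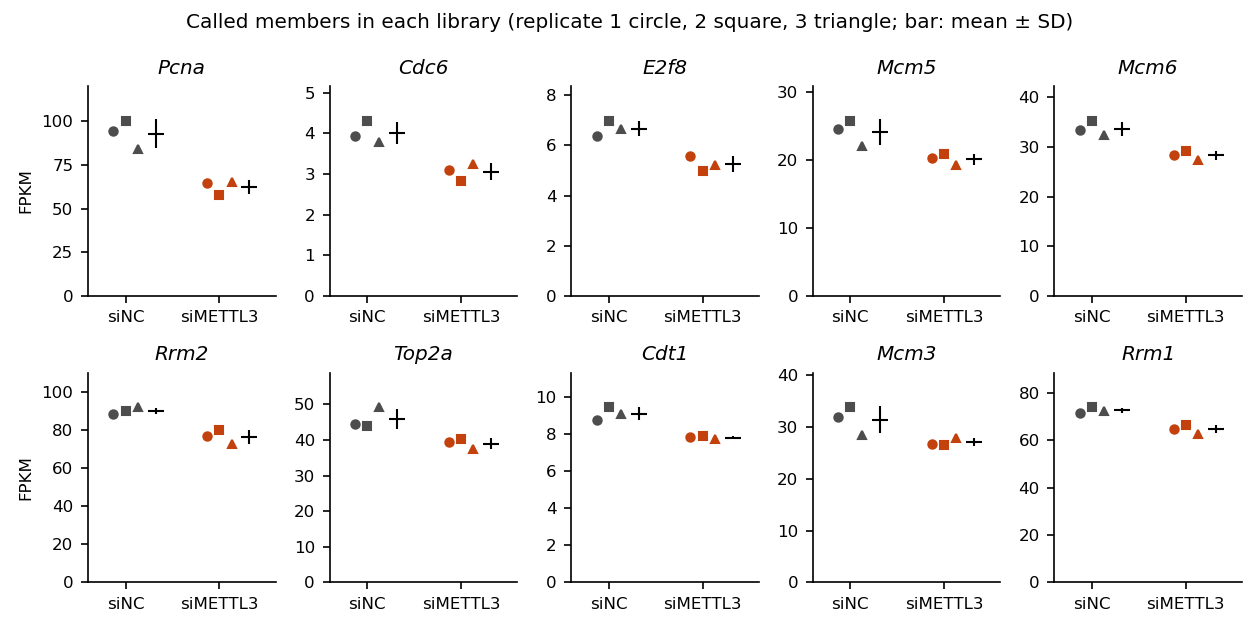
FPKM (vertical, from 0) of the 10 members past the threshold in each library, siNC in grey and siMETTL3 in orange, with the mean and SD of 3 libraries beside them. In each panel the 3 siMETTL3 points lie below the 3 siNC points, with the widest gap in Pcna.

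Among G2/M genes Top2a, Cdk1 and Ccna2 had the lowest fold changes, and those of the other 9 lay between -0.18 and 0.11. Top2a, the topoisomerase that untangles replicated DNA, measured 44.5, 43.9 and 49.1 FPKM in siNC and 39.3, 40.3 and 37.4 FPKM in siMETTL3, without overlap (-0.31, SE 0.0634, edgeR adjusted p = 0.0287). It lost the call by limma (adjusted p = 0.0603) and on library totals alone. In the table Top2a (ENSRNOG00000053047, 86901007 to 86932154, minus strand) and Cdc6 (ENSRNOG00000027787, 86819472 to 86833402, plus strand) are both on chromosome 10.

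Cdk1, the kinase that drives mitosis, and Ccna2, the cyclin A of S phase and G2, were the closest to passing. Cdk1 measured 85.5, 89.2 and 77.7 FPKM in siNC and 75.8, 66.3 and 76.9 FPKM in siMETTL3 (-0.28, SE 0.0809, adjusted p = 0.0737 by edgeR). Ccna2 measured 34.1, 36.5 and 35.0 FPKM in siNC and 32.5, 31.1 and 32.6 FPKM in siMETTL3 (-0.21, SE 0.0538, adjusted p = 0.0534 by edgeR). Neither gene's groups overlapped, though siNC replicate 3 and siMETTL3 replicate 3 nearly touched in Cdk1. DESeq2 (0.0233 and 0.0223) and the offsets for gene length (0.0234 and 0.0235) called both lower, which made 3 of 12 G2/M members with Top2a. Of all genes, DESeq2 called 10.6% lower and the offsets for gene length 10.3%. The chromosomal passenger kinase Aurkb had a log2 fold change of -0.18 (SE 0.0569, adjusted p = 0.0865).

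The genes of mitotic entry, the spindle checkpoint and exit had overlapping groups with few exceptions. Ccnb1, the cyclin B partner of Cdk1, measured 59.9, 64.0 and 57.7 FPKM in siNC and 61.4, 61.0 and 66.1 FPKM in siMETTL3 (-0.02, SE 0.0619, edgeR adjusted p = 0.863). Cdc20, which activates the ubiquitin ligase that ends metaphase, measured 53.2, 55.7 and 48.5 FPKM in siNC and 62.0, 55.2 and 61.3 FPKM in siMETTL3 (0.11, SE 0.0747, adjusted p = 0.394). In Cdc20, siMETTL3 replicate 2 fell among the siNC values and the other two siMETTL3 libraries lay above them. The kinases Plk1 (-0.06) and Aurka (0.01), the checkpoint kinase Bub1 (-0.04) and the passenger protein Birc5 (0.05) did not pass (adjusted p of 0.608 to 0.962). Bub1b, a checkpoint protein, had siMETTL3 values of 13.2, 14.0 and 14.4 FPKM above siNC values of 12.4, 12.2 and 12.6 FPKM, at a log2 fold change of 0.09 (SE 0.0554, adjusted p = 0.338).

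Mki67, the proliferation marker Ki-67, varied with the library more than with the group. It measured 29.8, 26.3 and 35.3 FPKM in siNC and 31.6, 38.7 and 31.6 FPKM in siMETTL3 (0.08, SE 0.125, adjusted p = 0.716). Its lowest value was in siNC replicate 2 and its highest in siMETTL3 replicate 2, the same libraries in which long genes were lowest and highest, and at 10165 bases it has the longest effective transcript of the members. With offsets for gene length its log2 fold change was -0.09 (adjusted p = 0.124). Fold change and effective length had a Spearman correlation of 0.24 over all genes tested and 0.012 over the 39 members. The part of gene length in the spread of Mki67 was not tested.

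The G1 members, which set whether a cell starts the cycle, showed no call in either direction, and 0 of them had an adjusted p under 0.05 by edgeR, limma or any fit with 1 library left out. DESeq2 and the offsets for gene length each called 1 of 11 lower, Cdk2 (adjusted p = 0.0461 and 0.0466). Of all genes, DESeq2 called 10.6% lower and the offsets for gene length 10.3%. The 2 members with an unadjusted p under 0.05 were Cdk2 and Ccne2. Cdk2, the kinase of cyclin E and A, measured 22.5, 23.9 and 20.9 FPKM in siNC and 20.1, 20.6 and 20.2 FPKM in siMETTL3 (-0.22, SE 0.0660, adjusted p = 0.0822). Ccne2, a cyclin E, measured 6.32, 6.40 and 6.52 FPKM in siNC and 5.94, 6.09 and 5.84 FPKM in siMETTL3 (-0.18, SE 0.0638, adjusted p = 0.121). Both sets of groups stood apart. The other cyclin E gene, Ccne1, had a log2 fold change of -0.04 (SE 0.0732).

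Cdk4, the partner of the D cyclins, had the highest mean level of all members at 92.1 FPKM. It measured 86.2, 95.2 and 86.6 FPKM in siNC and 96.7, 87.7 and 100.2 FPKM in siMETTL3 (0.01, SE 0.0734, adjusted p = 0.936). Ccnd2 measured 81.6, 68.3 and 96.8 FPKM in siNC and 73.0, 81.9 and 73.6 FPKM in siMETTL3 (-0.19, SE 0.123, adjusted p = 0.367). The siNC libraries of Ccnd2 spanned the siMETTL3 ones entirely. Ccnd3 measured 66.4, 73.4 and 68.3 FPKM in siNC and 67.0, 68.7 and 68.7 FPKM in siMETTL3 (-0.10, SE 0.0561, adjusted p = 0.293). Ccnd1 (-0.03), Cdk6 (0.02) and the retinoblastoma gene Rb1 (0.03) had fold changes smaller than their standard errors (0.0471, 0.169 and 0.107).

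Of the kinase inhibitors, Cdkn1b (p27) measured 19.0, 20.4 and 19.8 FPKM in siNC and 22.2, 22.9 and 22.1 FPKM in siMETTL3, without overlap, but its log2 fold change of 0.10 (SE 0.0607, adjusted p = 0.319) did not pass. Cdkn2c (p18) had a log2 fold change of -0.21 (SE 0.101, adjusted p = 0.234).

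The FPKM of each phase was also summed within each library. The 16 S-phase members summed to 541, 561 and 520.2 FPKM in siNC and 466, 459 and 457 FPKM in siMETTL3. The 12 G2/M members summed to 447, 456.5 and 433 FPKM against 444, 431 and 452 FPKM. The 11 G1 members summed to 368, 374 and 384 FPKM against 372, 377 and 377 FPKM. The S-phase sums did not overlap between groups, and the other sums did. These sums follow the most abundant members, of which Rrm2, Pcna and Rrm1 made up the largest part in S phase.

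Most fibroblast and macrophage markers fell, as the S-phase genes did, while smooth muscle and endothelial markers were mixed (median log2 fold changes of -0.02 and 0.04). Of all genes tested, 6.59% were called lower and 3.4% higher, and 1.98% to 5.2% lower with 1 library left out. Of 11 tested fibroblast markers 8 fell and 0 rose, and the list summed to 1946 to 1983 FPKM in siNC and 1286 to 1353 FPKM in siMETTL3. Of 7 tested macrophage markers 7 fell, and the 11 on the list summed to 78.7 to 96.5 FPKM in siNC and 41.1 to 53.2 FPKM in siMETTL3. Vim, an intermediate filament gene on the fibroblast list, had a log2 fold change of -0.31 and the lysozyme Lyz2 on the macrophage list one of -1.04. No fibroblast or macrophage marker was at 0 in any library, and the endothelial Cldn5 was at 0 in siNC replicate 3 and siMETTL3 replicates 1 and 3. With 1 library left out, 4 to 7 fibroblast markers and 5 or 6 macrophage markers were lower, with 4 and 5 without siNC replicate 1, and Vim was lost without siNC replicate 1 or 2 or siMETTL3 replicate 1 (adjusted p up to 0.0844). Of 8 smooth muscle and pericyte markers 2 fell (Cnn1, -0.93, and Myh11, -0.58; list sums of 350.4 to 363 and 215 to 243 FPKM), and of 5 tested endothelial markers 2 rose and 1 fell (list sums of 18.8 to 20.6 and 20.3 to 21.2 FPKM). Of 11 cardiomyocyte markers 2 fell (list sums of 14320 to 15860 and 13130 to 14830 FPKM). Of the fits with 1 library left out, only that without siNC replicate 3 called these 2, and limma called 0 cardiomyocyte markers. The 2 smooth muscle falls held with any 1 library left out. The endothelial fall was lost in each such fit, where 1 or 2 endothelial markers were called higher. The part of these markers' cells in the S-phase result was not tested.

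**Figure D4:**
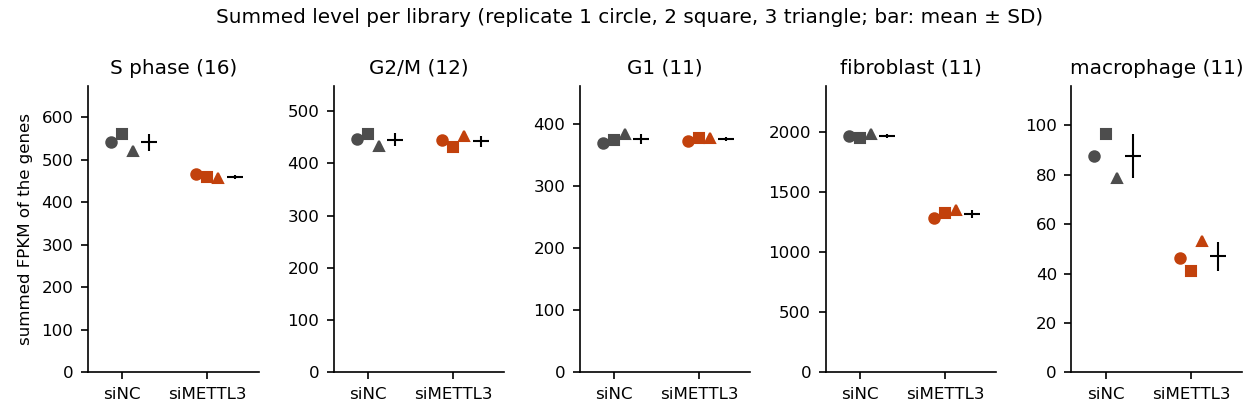
Summed FPKM (vertical, from 0) of the S-phase, G2/M and G1 members and of the fibroblast and macrophage markers in each library, siNC in grey and siMETTL3 in orange, with the mean and SD of 3 libraries. The S-phase sums (siNC 541 ± 20.5, siMETTL3 460.5 ± 4.67) and both marker sums stand apart by group, whereas the G2/M and G1 sums overlap.

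Further genes of the same phases, from lists of 43 replication genes, 46 mitotic genes and 27 other G1 regulators, were read from the same fit. Of 42 tested replication genes 12 fell and 0 rose, where 6.59% of all genes were called lower and 3.4% higher. Their median log2 fold change was -0.22, with 38 of 42 below 0 against 49.5% of all genes. By limma and on library totals alone 37 of 42 lay below 0. Cdc45, the helicase activator, measured 4.06, 4.42 and 3.53 FPKM in siNC and 2.77, 2.65 and 2.89 FPKM in siMETTL3 (-0.61, SE 0.0943, edgeR adjusted p = 0.0118). Gmnn, geminin, the inhibitor of Cdt1, measured 20.1, 23.1 and 19.7 FPKM against 16.3, 14.2 and 14.4 FPKM (-0.56, SE 0.0941, adjusted p = 0.0147). In both genes the groups were well apart. The flap endonuclease Fen1 (-0.31, adjusted p = 0.0226) and the single-strand binding protein Rpa1 (-0.24, adjusted p = 0.0321) fell as well. limma called 3 of the 42 lower and 1 higher, against 4.4% and 6.53% of all genes. Leaving out siNC replicate 1, 2 or 3 gave 0, 2 or 10 lower, and siMETTL3 replicate 1, 2 or 3 gave 1, 3 or 1. Over all genes the fits with 1 library left out called 1.98% to 5.2% lower. Cdc45 was lost without siNC replicate 1 or siMETTL3 replicate 1 (up to 0.0583), Gmnn without siNC replicate 1 or siMETTL3 replicate 3 (up to 0.0556), Fen1 unless siNC replicate 3 was the one left out (up to 0.106) and Rpa1 in each (up to 0.108).

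The 46 mitotic genes had a median of -0.09, with 34 of 46 below 0 against 49.5% of all genes. By limma and on library totals alone 26 of 46 lay below 0. Their medians were then -0.018 and -0.017, beside 0.067 and 0.078 for all genes. Where 6.59% of all genes were called lower and 3.4% higher, 0 of the 46 rose and 5 fell. They were the mitotic kinase Pbk (28.5, 27.4 and 26.7 FPKM in siNC, 21.7, 20.4 and 21.7 FPKM in siMETTL3; -0.44), the cytokinesis scaffold Anln (-0.42), the kinases Wee1 (-0.27) and Pkmyt1 (-0.50), which hold Cdk1 inactive, and the condensin subunit Ncaph (-0.23), with edgeR adjusted p of 0.00806, 0.0127, 0.0403, 0.0423 and 0.0454. DESeq2 called 13 lower and 2 higher, and the offsets for gene length 15 lower and 1 higher. limma called 2 lower and 1 higher. Over all genes these 3 fits called 10.6%, 10.3% and 4.4% lower and 7.71%, 6.07% and 6.53% higher. Leaving out siNC replicate 1, 2 or 3 gave 0, 2 or 4 lower, and siMETTL3 replicate 1, 2 or 3 gave 1, 2 or 2. Over all genes the fits with 1 library left out called 1.98% to 5.2% lower. Pbk was lost only without siNC replicate 1 (0.0551), Anln without siNC replicate 1 or siMETTL3 replicate 1 (up to 0.0537), Pkmyt1 unless siNC replicate 3 was left out (up to 0.123), and Wee1 (up to 0.142) and Ncaph (up to 0.164) in each.

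Of 25 tested G1 regulators 2 rose and 0 fell, where 3.4% of all genes were called higher and 6.59% lower. Their median log2 fold change was -0.11, with 16 of 25 below 0 against 49.5% of all genes. By limma and on library totals alone 14 of 25 lay below 0. The lowest on the list was -0.72, which did not pass. Cdkn1c, the kinase inhibitor p57, which restrains the G1 kinases, measured 5.09, 5.25 and 5.31 FPKM in siNC and 9.74, 9.92 and 8.78 FPKM in siMETTL3. All siMETTL3 libraries lay far above all siNC libraries. Its log2 fold change of 0.79 (SE 0.0835, edgeR adjusted p = 0.00371) was larger in size than that of any of the 39 members, and the adjusted p was at most 0.0261 with any 1 library left out. Mycn, the N-MYC transcription factor, measured 6.80, 7.57 and 7.45 FPKM against 9.36, 9.71 and 9.77 FPKM (0.33, SE 0.0694, adjusted p = 0.0313). Its call was lost with any 1 library left out (adjusted p up to 0.111). Cdkn1a (p21), an inhibitor named after its value was seen, measured 158, 167 and 152 FPKM in siNC and 154, 143 and 149 FPKM in siMETTL3 (-0.17, SE 0.0602, adjusted p = 0.119).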

How the data were processed

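Per the file headers, the authors' table gives FPKM, computed by the authors, and whole-number counts for each library. FPKM is 0.0001 where the count is 0. Bowtie 0.12.2 and mm8, a mouse build, appear in the submitters' processing notes, with no step given. The table lists rat Ensembl genes, and its aligner, quantifier and annotation are not given in the sources used here. Counts may be estimates derived from coverage. The members and lists were chosen with earlier results of these data known.

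Counts of the 13105 genes whose mean reached 1 FPKM were compared with edgeR 4.0.16 (quasi-likelihood, TMM, 2-sided) in R 4.3.3. SE is the log2 fold change over the root of F. FPKM is not TMM-scaled (factors 0.9701 to 1.032). limma 3.58.1 on log2(FPKM + 1), DESeq2 1.42.0 and further settings were alternatives. Offsets for gene length, from a lowess trend on the length implied by counts over FPKM, were added after seeing the data. The edgeR script was tested on simulated data. Counting error is small at this depth, so the spread between libraries limits the precision. Library values were given for members past the threshold and, per phase, the 3 most abundant and the 2 with the smallest p that did not pass. Where the text turns on another member, its values were added after they were seen. Up to 4 called genes of each further list and up to 2 markers per cell type were named by rule. Ncaph, Cdkn1a, Myh11 and Cldn5 were named in addition, after their values were seen. Replicates differed by more than sampling noise (chi-square per degree of freedom 22.1 to 63.1).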

Additional observations from a re-analysis of the deposited data

How the results depend on the processing

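Of 160 refits of a single member among the 10 called, 86 kept the call and 74 lost it. The direction held in all 160, but these members were picked on the same libraries and their groups did not overlap. A change of sign was therefore unlikely from the start. S-phase members called lower numbered 4 by limma at either pseudocount, 5 on library totals alone, 9 with median-ratio factors and 1 to 8 with 1 library left out. G2/M members called lower numbered 0 by limma and on library totals alone, 3 by DESeq2 and with length offsets, and 0 to 1 with 1 library left out. G1 members called lower numbered 1 by DESeq2 and with length offsets. Of 113 other cell cycle genes tested, 5 were lower and 4 higher by limma, where 4.4% and 6.53% of all genes were. DESeq2 called 28 lower and 5 higher (10.6% and 7.71% of all genes). Library totals alone gave 6 and 5 (4.82% and 7.82% of all genes), and length offsets 32 and 4 (10.3% and 6.07%). Without a filter 7 were lower and 1 higher. With 1 library left out 0 to 14 were lower, against 1.98% to 5.2% of all genes, and 1 was higher. Of all genes, 864 were lower and 445 higher by edgeR, against 576 and 856 by limma (568 and 851 at a pseudocount of 0.1), 1384 and 1010 by DESeq2, 632 and 1025 on library totals alone, 1356 and 796 with length offsets, 673 and 308 without a filter, and 260 to 681 and 84 to 385 with 1 library left out.

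Of the members that did not pass, 13 changed sign in at least 1 refit. By limma (pseudocounts 1 and 0.1) and on library totals alone, log2 fold changes were 0.054, 0.055 and 0.055 for Ccnb1, 0.0185, 0.0189 and 0.0183 for Plk1, 0.032, 0.034 and 0.035 for Bub1, 0.042, 0.043 and 0.043 for Ccnd1, and 0.028, 0.030 and 0.030 for Ccne1. On library totals alone these 5 genes moved up by 0.0751 to 0.0754 and the median of all genes by 0.0754, a shift from the scaling that all genes share. With length offsets they were -0.0049 for Gins2, -0.088 for Mki67 and 0.024 for Ccnb1. With 1 library left out they ran from -0.043 to 0.058 for Aurka, -0.0083 to 0.071 for Birc5, -0.058 to 0.022 for Ccnb1, -0.030 to 0.068 for Cdk4, -0.147 to 0.103 for Cdk6, -0.020 to 0.200 for Mki67, -0.050 to 0.122 for Rb1 and -0.0023 to 0.092 for Tyms. The cause of the changes with length offsets or with 1 library left out was not tested.

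Libraries of the same replicate number were not alike in their deviations from the group means (correlation 0.0359, -0.249 and -0.0903 for numbers 1, 2 and 3). With means of 3 libraries, these values cannot show whether the libraries were handled in pairs. With a replicate block, 0 S-phase, 0 G2/M and 0 other cell cycle genes were called in either direction, and 50 of all genes were lower and 14 higher.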
